A study of Mus musculus with 9 samples.

Results

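Interferon-stimulated genes (ISGs) were followed through birth in the hearts of C57BL/6J mice. The set held 39 genes chosen by name, from the interferon receptor and its transcription factors to RNA sensors and antiviral effectors, and each was found by its symbol among the 48820 genes of the deposited table. The mice were WT without treatment and all were labelled male. RNA-seq covered the late fetal stage E18.5d, the first postnatal day (P1d) and postnatal day 7 (P7d) in heart tissue, with 3 samples per stage that the labels call biological replicates. Whether a sample pooled hearts is not given in the labels, and each is called a heart here. Values are FPKM (fragments scaled to transcript length and to the fragments mapped per library), which can be compared between genes. In 33 of the 39 members the mean over the 9 hearts reached 1 FPKM, and these were tested within the 13618 genes that passed this filter. The remaining 6 (*Oas1a*, *Oas2*, *Oas3*, *Ifit1*, *Mx1* and *Mx2*) lay under this filter.

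Type I interferons are secreted antiviral cytokines that bind a receptor made of the chains IFNAR1 and IFNAR2. The kinases JAK1 and TYK2 then phosphorylate STAT proteins, and STAT2 joins IRF9 in the complex ISGF3. This complex binds the interferon-stimulated response element (ISRE) in the promoters of its target genes, whereas interferon gamma acts through the gamma-activated site (GAS). Many ISGs are also transcribed at a low level in healthy tissue, and the RNA sensors among them detect viral RNA in the cytosol. In heart muscle, IFNAR signalling is best known from viral myocarditis.

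Before the members are described, some features of the 9 hearts have to be given. The steps between low values gave depths of 25500000 to 37000000 fragments at E18.5d, 27500000 to 29500000 at P1d and 36250000 to 44250000 at P7d, and the floor of 3 fragments on a transcript of 1 kb was 0.0678 to 0.118 FPKM. In 4 hearts labelled male (E18.5d replicates 1 and 3, P7d replicates 2 and 3), *Xist* was at 58.03 to 97.03 FPKM and 4 Y-linked genes were at 0, while *Xist* was at most 0.11 in the other 5. Summed FPKM of 7 lung epithelium markers was 90.9 and 252 in E18.5d replicates 1 and 2 and 493 in P1d replicate 1, against at most 3.2 in the other 6 hearts. That sum came from 3 secretoglobins of airway cells (*Scgb1a1*, *Scgb3a1* and *Scgb3a2*), while the 4 surfactant genes of the list were at most 0.94 FPKM in any heart, so these are called the secretoglobin hearts here. Cardiomyocyte markers (6 genes) summed to 19946 to 26712 FPKM in every heart. The column total held 36.5% to 37.3% from protein-coding nuclear genes at E18.5d and 29.6% to 34.5% at P1d and P7d. The median of all genes tested changed by -0.17 on the log2 scale from E18.5d to P7d as deposited. After median-of-ratios scaling, which sets the typical gene equal between hearts, that median was 0.01. Changes below are given on the deposited scale as log2(FPKM + 1), a scale on which weakly expressed genes change by less than their FPKM ratio and the rescaled value is added beside a called change that it ends. Rescaling also brought changes of *Ifnar1*, *Irf1*, *Ifit2*, *Irgm1* and *Iigp1* past the threshold. In bulk tissue, fewer cells of a type and less RNA per cell cannot be told apart.

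The promoters of the members carried the ISRE far more often than promoters in general. RefSeq windows of 300 bases on GRCm38.p6, from 250 before to 50 after the transcription start, were on hand for 30 of the 39 members (34 windows). The ISRE core, searched as GAAA, a spacer of 2 bases and GAAA on either strand, was found in 18 of the 34 windows (52.9%), against 3.44% of 32851 mouse windows. At least 2 matches, which may overlap each other, were present in 23.5% of member windows and 0.225% of all windows. The GAS letters (TTC, a spacer of 3 bases and GAA) stood in 32.4% of member windows and 8.3% of all windows, and matches to either motif were counted whether or not they overlapped the other. Shown here are upstream stretches from 5 members that recur below, in lower case with the ISRE matches in capitals, written along the strand of the gene. The stretch of *Isg15* (chr4:156200845-156200926, minus strand) begins 108 bases before the start and holds 3 overlapping matches.
Isg15: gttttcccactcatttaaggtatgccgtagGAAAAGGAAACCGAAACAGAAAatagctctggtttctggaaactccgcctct
In *Bst2* (chr8:71537557-71537632, minus strand) a pair of overlapping matches begins 130 bases before the start.
Bst2: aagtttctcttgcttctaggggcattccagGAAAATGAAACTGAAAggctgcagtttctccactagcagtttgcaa
In *Irgm1* (chr11:48871421-48871480, minus strand) the matches begin 30 bases before the start.
Irgm1: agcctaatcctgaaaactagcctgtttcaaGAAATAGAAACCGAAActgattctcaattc
In *Rsad2* (chr12:26456533-26456602, minus strand) the core reads in the opposite orientation, 120 bases before the start.
Rsad2: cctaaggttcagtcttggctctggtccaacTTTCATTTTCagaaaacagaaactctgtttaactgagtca
In *Stat2* (chr10:128270248-128270315, plus strand) the match lies 222 bases before the start, also in the opposite orientation.
Stat2: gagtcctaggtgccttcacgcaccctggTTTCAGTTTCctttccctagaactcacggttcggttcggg
A match is a description of the letters in the window. No ISRE core was found in the windows of 12 members, among them *Irf7*, *Irf9*, *Oasl2*, *Trim25*, *Xaf1*, *Ifi44* and *Ifitm1*, which says nothing about sequence outside the window.

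The 33 members tested did not move as a block. Of these, 24 passed an adjusted p of 0.05 (limma, Benjamini-Hochberg over 13618 genes) in at least 1 of the 3 comparisons, which share hearts with each other, and 9 passed in none. Between P1d and E18.5d, 8 members (24.2%) were higher at P1d and 8 (24.2%) lower, beside 18.4% and 27.6% of all genes tested. Between P7d and P1d, 2 members (6.06%) were higher and 13 (39.4%) lower at P7d, beside 15.5% and 28.6% of all genes. Between P7d and E18.5d, 2 (6.06%) were higher and 12 (36.4%) lower, beside 12.5% and 36.9% of all genes. The share of members lower at P7d than before birth was thus close to the background on the deposited scale. It was 27.3% beside 18.7% after median-of-ratios scaling and 33.3% beside 45.6% when hearts had to lie apart between the stages. The median member changed by 0.01, -0.25 and -0.16 in these comparisons and the median of all genes by -0.06, -0.09 and -0.17.

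With median-of-ratios scaling, 10 members (30.3%) were higher and 5 (15.2%) lower at P1d against E18.5d, beside 23.6% and 22.3% of all genes. At P7d against P1d 4 (12.1%) were higher and 10 (30.3%) lower, beside 23.5% and 18.2%. At P7d against E18.5d 5 (15.2%) were higher and 9 (27.3%) lower, beside 23.2% and 18.7%. Counting instead the members whose hearts did not overlap between stages, 10 were higher and 8 lower at P1d than at E18.5d, beside 22.1% and 32.3% of all genes. From P1d to P7d, 4 were higher and 21 (63.6%) lower, beside 19.3% and 34.3% of all genes. From E18.5d to P7d, 4 were higher and 11 (33.3%) lower, beside 16.9% and 45.6%. On each of these counts the share of members was above that of all genes for higher at P1d than at E18.5d and for lower at P7d than at P1d, and whether the shares differ was not tested.

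**Figure D1:**
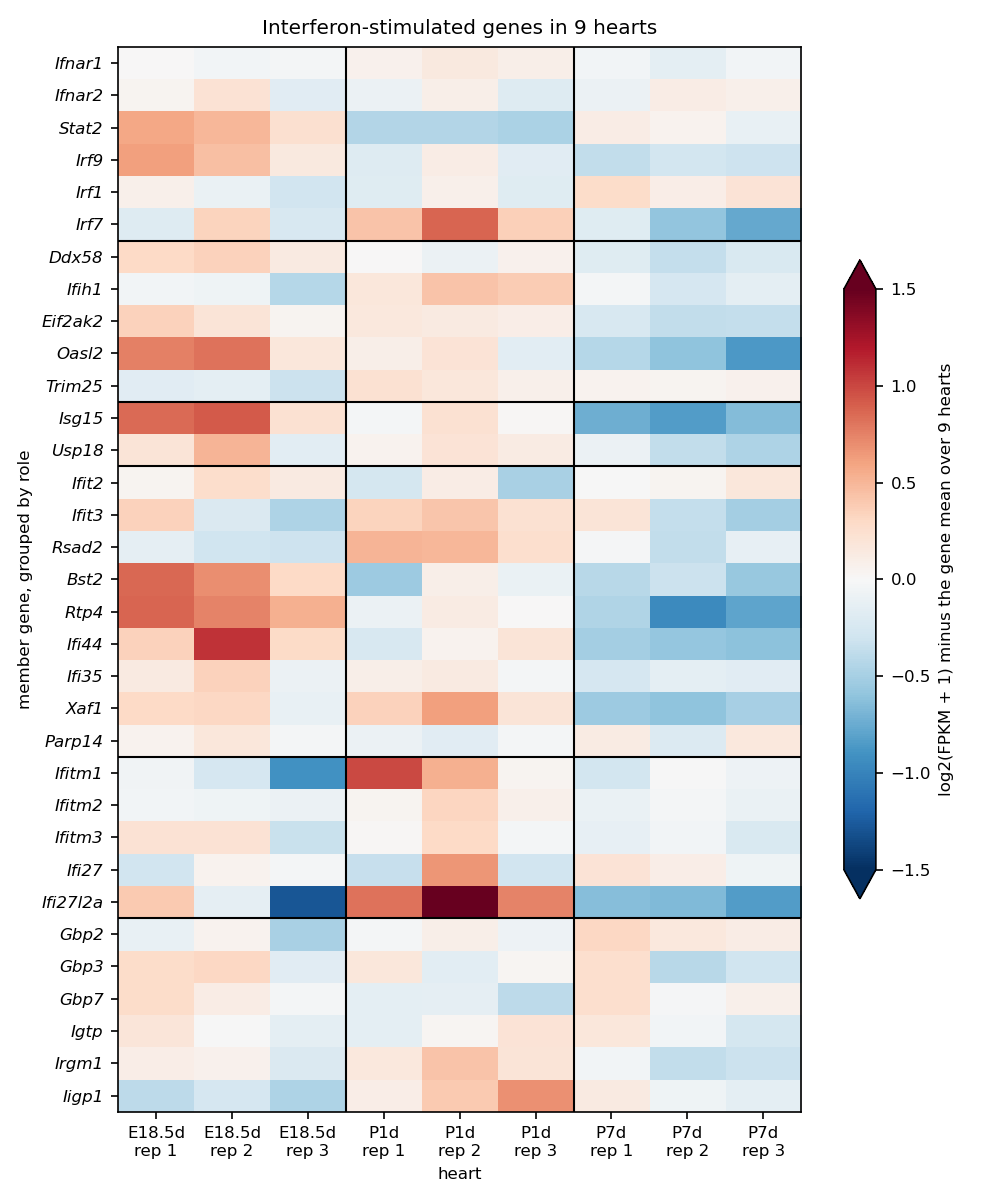
Level of the 33 members tested in each of the 9 hearts, as log2(FPKM + 1) minus the mean of the gene over all hearts, with rows grouped by role and columns by stage. *Isg15*, *Rtp4*, *Bst2* and *Oasl2* have their highest means at E18.5d, *Ifi27l2a*, *Irf7* and *Rsad2* at P1d, and E18.5d replicate 3 is paler or bluer than its stage mates in most rows.

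These counts rest in part on hearts that go against their label or stand apart. Without the 4 hearts with *Xist*, which leaves 1 heart at E18.5d and 1 at P7d, 0 and 1 members were higher and lower at P1d against E18.5d, 0 and 0 at P7d against P1d and 0 and 1 at P7d against E18.5d. Over all 13618 genes the calls also dropped, to 239 and 584, 75 and 104, and 93 and 101. Without the 3 secretoglobin hearts, which leaves E18.5d replicate 3 alone at its stage, the counts were 5 and 1, 1 and 13, and 3 and 5, beside 1019 and 1452, 1403 and 2579, and 990 and 2262 of all genes. All 45 calls kept their sign in both of these reduced sets, and 24 of the 45 stayed past the threshold without the secretoglobin hearts. A lone heart is assumed there to vary like those of the other stages.

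Signalling components held the receptor chains, STAT2 and 3 interferon regulatory factors. *Ifnar1*, 1 chain of the type I interferon receptor, was the most abundant of them with a mean of 26.2 FPKM. Its values were 26.37, 25.29 and 25.50 FPKM at E18.5d, 27.43, 28.98 and 27.76 at P1d and 25.47, 23.56 and 25.38 at P7d. The P7d hearts lay below the P1d hearts without overlap, by a log2 difference of -0.17 (SE 0.06, adjusted p = 0.0313, limma), yet this was -0.04 after median-of-ratios scaling (adjusted p = 0.557), and the call was also lost without P1d replicate 2, P7d replicate 2 or P7d replicate 3 (adjusted p from 0.0544 to 0.106). The same scaling brought its differences from E18.5d past the threshold (log2 0.20 at P1d and 0.15 at P7d, adjusted p = 0.0155 and 0.0463), which as deposited were 0.12 and -0.05 (adjusted p = 0.103 and 0.471). *Ifnar2*, the other chain, was at 21.1 ± 2.97, 19.6 ± 1.97 and 21.0 ± 1.65 FPKM (SD, n = 3) in order of stage and passed in no comparison. It shares 6.31% of its 100-base stretches with *Gm21970*.

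*Stat2* (chr10:128270559-128292849), the STAT subunit that gives ISGF3 its activation domain, dipped on the first day. Its levels were 4.90, 4.56 and 3.65 FPKM at E18.5d, 1.90, 1.90 and 1.85 at P1d and 3.27, 3.08 and 2.64 at P7d. No stage overlapped another. The mean at P1d was 0.431 times that at E18.5d (log2 -0.89, SE 0.11, adjusted p = 0.000191) and P7d was 1.59 times P1d (log2 0.47, SE 0.11, adjusted p = 0.00717). Both calls held in all 19 alternatives, which leave aside the sets without the hearts with *Xist* or the secretoglobin hearts. P7d remained lower than E18.5d (log2 -0.42, adjusted p = 0.0102), a call lost with median-of-ratios scaling (log2 -0.26, adjusted p = 0.0823).

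*Irf9*, the DNA-binding subunit of ISGF3, stepped down instead. Hearts read 12.60, 11.19 and 8.84 FPKM at E18.5d, 6.81, 8.61 and 6.89 at P1d and 5.89, 6.33 and 6.20 at P7d, with no overlap between any stages. It fell from E18.5d to P1d (log2 -0.49, SE 0.12, adjusted p = 0.0104) and from E18.5d to P7d (log2 -0.72, SE 0.12, adjusted p = 0.00121), and the step from P1d to P7d did not pass (log2 -0.23, adjusted p = 0.153). Both calls held in all 20 alternatives of that kind.

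*Irf7* (chr7:141262706-141266481), which drives interferon alpha genes once phosphorylated, showed the opposite course to *Stat2*. Its values were 2.65, 4.29 and 2.54 FPKM at E18.5d, 4.62, 6.65 and 4.35 at P1d and 2.68, 1.77 and 1.45 at P7d. The P1d hearts lay above those of both other stages, which overlapped each other. The fall to P7d (ratio 0.378, log2 -1.07, SE 0.21, adjusted p = 0.00294) held in all 19 alternatives. The rise at P1d (ratio 1.65, log2 0.58, SE 0.21, adjusted p = 0.0446) was lost without any of 5 hearts, namely E18.5d replicates 1 and 3, P1d replicates 1 and 2 and P7d replicate 2 (adjusted p from 0.0616 to 0.145), and with a covariate for *Xist* (adjusted p = 0.33). *Irf7*, like *Irf1*, *Eif2ak2*, *Usp18*, *Ifi35* and *Gbp2*, overlaps exons of a gene on the other strand, whose reads cannot be told apart without strand, and counting by strand is not stated. *Irf1*, an early response factor, was at 5.32 ± 0.80, 5.35 ± 0.676 and 6.74 ± 0.468 FPKM (SD, n = 3). Its P7d hearts lay above both earlier stages, with adjusted p = 0.0625 against P1d and 0.051 against E18.5d as deposited and 0.0149 and 0.00644 after median-of-ratios scaling.

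**Figure D2:**
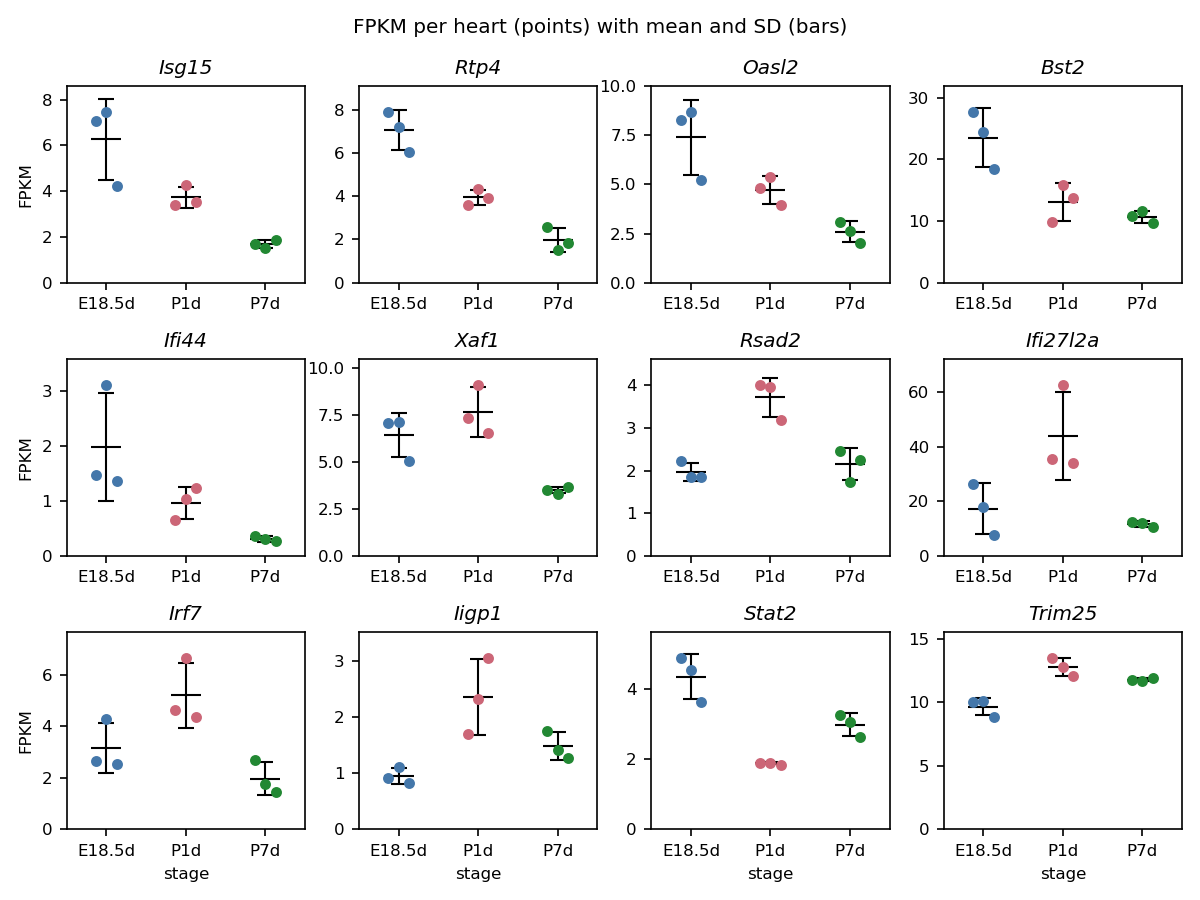
FPKM of 12 members in each heart (points, coloured by stage), with the mean and SD of the 3 hearts per stage. The y axes start at 0 and differ between panels. *Isg15*, *Rtp4* and *Oasl2* fall at each step, *Rsad2*, *Ifi27l2a* and *Irf7* are highest at P1d, and *Stat2* is lowest there.

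Of 5 RNA sensors and effectors tested, 4 were called lower at P7d than at P1d, where 28.6% of all genes were, and none higher. The call of *Eif2ak2* held in all alternatives counted as for *Stat2*, whereas those of *Ddx58*, *Ifih1* and *Oasl2* were lost on leaving out single hearts. *Ddx58* encodes RIG-I, a sensor of short viral RNA with a triphosphate end. It was at 11.14, 11.60 and 9.85 FPKM at E18.5d, 8.96, 8.29 and 9.31 at P1d and 7.74, 6.75 and 7.43 at P7d. Each stage lay below the one before. From E18.5d to P7d the log2 change was -0.51 (SE 0.08, adjusted p = 0.000799), held in all 20 alternatives. The separate steps of -0.27 (adjusted p = 0.0245) and -0.25 (adjusted p = 0.0348) were less firm, being -0.19 and -0.13 after median-of-ratios scaling (adjusted p = 0.0616 and 0.203). The step at P1d was lost when any of E18.5d replicates 1 and 2 and P1d replicates 1 and 2 was left out (adjusted p from 0.0512 to 0.092), and that at P7d when P1d replicates 1 and 3 and P7d replicates 2 and 3 were left out singly (adjusted p from 0.0702 to 0.118).

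*Ifih1* encodes MDA5, which binds long double-stranded RNA. Hearts had 1.65, 1.61 and 1.03 FPKM at E18.5d, 2.07, 2.67 and 2.55 at P1d and 1.69, 1.29 and 1.48 at P7d. In contrast to *Ddx58*, its P1d hearts were above both other stages (log2 0.50, SE 0.14, adjusted p = 0.0136 against E18.5d). The following fall (log2 -0.46, SE 0.14, adjusted p = 0.0209) did not survive removal of any of P1d replicates 2 and 3 and P7d replicates 2 and 3 (adjusted p from 0.0529 to 0.0713). With the *Xist* covariate neither change passed (adjusted p = 0.103 and 0.143).

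*Eif2ak2*, the kinase PKR that stops translation on double-stranded RNA, had 8.72, 7.76 and 6.85 FPKM before birth, 7.58, 7.39 and 7.22 at P1d and 5.47, 4.91 and 4.99 at P7d. E18.5d and P1d overlapped and P7d was below both, by log2 -0.52 against E18.5d (SE 0.09, adjusted p = 0.00109) and -0.46 against P1d (SE 0.09, adjusted p = 0.00258), held in all 20 alternatives. *Oasl2*, an oligoadenylate synthetase-like protein, fell furthest of the sensing group. Its levels were 8.31, 8.71 and 5.22 FPKM, then 4.84, 5.37 and 3.94, then 3.10, 2.64 and 2.03 at P7d. E18.5d replicate 3 reached into the P1d range and P7d lay below all. The P7d mean was 0.349 times that at E18.5d (log2 -1.21, SE 0.18, adjusted p = 0.000587). Of its steps, that to P1d (log2 -0.54, adjusted p = 0.037, and -0.47, adjusted p = 0.0566, after median-of-ratios scaling) was lost on removing E18.5d replicates 1 and 2, P1d replicates 1 and 3 and P7d replicate 2 singly (adjusted p from 0.0536 to 0.127), and that to P7d (log2 -0.67, adjusted p = 0.0149) without P7d replicate 3 (adjusted p = 0.0567) and with the *Xist* covariate (adjusted p = 0.118).

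*Trim25*, the ubiquitin ligase that activates RIG-I, went the other way. It rose from 10, 10.14 and 8.87 FPKM to 13.50, 12.83 and 12.05 at P1d and was at 11.78, 11.70 and 11.92 at P7d. Both postnatal stages lay above E18.5d (log2 0.37 and 0.26, SE 0.07, adjusted p = 0.00217 and 0.0115). Both calls ended when column sums were set equal (adjusted p = 0.142 and 0.122), and no other of the 20 alternatives did.

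The ISG15 system pairs a ubiquitin-like protein with the protease that removes it. *Isg15* (chr4:156199424-156200818), whose upstream stretch held the 3 overlapping ISRE matches, was at 7.09, 7.48 and 4.23 FPKM at E18.5d, 3.39, 4.26 and 3.53 at P1d and 1.69, 1.51 and 1.85 at P7d. The P7d hearts lay below all others, and E18.5d replicate 3 fell within the P1d range. The mean at P7d was 0.269 times that at E18.5d (log2 -1.41, SE 0.17, adjusted p = 0.000171) and 0.452 times that at P1d (log2 -0.81, SE 0.17, adjusted p = 0.00447), held in all 19 alternatives. The step from E18.5d to P1d (log2 -0.59, adjusted p = 0.0189) ended with the removal of E18.5d replicates 1 and 2 and P1d replicate 1 singly (adjusted p from 0.0595 to 0.0727). *Isg15* is short (756 exonic bases), and its values stood for an estimated 27 to 126 fragments per heart.

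*Usp18*, which strips ISG15 from proteins and also damps the receptor, had 2.27, 3.07 and 1.56 FPKM, then 1.96, 2.30 and 2.10, then 1.68, 1.21 and 1.08. P7d overlapped E18.5d through replicate 3 of the earlier stage. The difference from E18.5d to P7d (log2 -0.49, SE 0.17, adjusted p = 0.0371) was lost after median-of-ratios scaling (log2 -0.36, adjusted p = 0.108) and when any of E18.5d replicates 1 and 2 and P7d replicates 2 and 3 was removed (adjusted p from 0.0831 to 0.131).

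Among the IFIT, MX and other antiviral effectors, 9 of 12 were tested. Of these, 1 was higher and 2 lower at P1d than at E18.5d, beside 18.4% and 27.6% of all genes tested. From P1d to P7d 3 fell and from E18.5d to P7d 5 fell, beside 28.6% and 36.9% of all genes. None rose in these later comparisons, where 15.5% and 12.5% of all genes did. *Rtp4* (chr16:23520291-23614222), a chaperone-like zinc finger protein, stepped down at each stage. It was at 7.91, 7.20 and 6.05 FPKM, 3.61, 4.31 and 3.90 at P1d and 2.58, 1.52 and 1.82 at P7d. No stage overlapped another, and the log2 changes of -0.70 at P1d, -0.75 from there to P7d and -1.45 over the whole interval (SE 0.14, adjusted p = 0.00299, 0.00238 and 4.45e-05) held in all 19 alternatives. The gene shares 9.28% of its 100-base stretches with *Gm45338*, which overlaps it.

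*Bst2* encodes tetherin, which holds budding virus at the cell surface. Hearts read 27.77, 24.53 and 18.39 FPKM at E18.5d, 9.82, 15.81 and 13.77 at P1d and 10.79, 11.64 and 9.66 at P7d. Both postnatal stages overlapped each other and lay below E18.5d (log2 -0.80 and -1.05, SE 0.18, adjusted p = 0.00524 and 0.00109), in all 20 alternatives. Without the secretoglobin hearts the P1d difference was -0.30 (adjusted p = 0.191) and the P7d difference -0.73 (adjusted p = 0.0172). *Ifi44*, an effector of low abundance here, had 1.47, 3.12 and 1.37 FPKM, then 0.65, 1.03 and 1.23, then 0.37, 0.30 and 0.27. The stages did not overlap, and P7d against E18.5d passed (ratio 0.158, log2 -1.14, SE 0.21, adjusted p = 0.00196), while the steps had adjusted p = 0.0545 and 0.0527. With a mean of 1.09 FPKM, *Ifi44* passed the filter only through E18.5d (stage means 1.99, 0.97 and 0.313). The filter thus favoured a fall of this gene from E18.5d, here and in the counts.

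*Xaf1*, known as a promoter of apoptosis, passed only in the comparisons with P7d. Values were 7.07, 7.16 and 5.07 FPKM, 7.33, 9.12 and 6.55 at P1d and 3.52, 3.32 and 3.66 at P7d. P7d lay below both earlier stages (log2 -0.94 against P1d and -0.71 against E18.5d, SE 0.14, adjusted p = 0.000637 and 0.0023), in all 20 alternatives. *Rsad2* encodes viperin, which makes a chain-terminating nucleotide, and peaked on the first day. It was at 2.22, 1.86 and 1.85 FPKM, then 4.01, 3.96 and 3.19, then 2.47, 1.73 and 2.24. The P1d hearts exceeded all others, by 1.88 times against E18.5d (log2 0.66, SE 0.12, adjusted p = 0.00187), and P7d returned to 0.577 times P1d (log2 -0.59, SE 0.12, adjusted p = 0.00395), both held in all 19 alternatives.

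*Ifi35* was at 10.21, 11.99 and 8.59 FPKM, 9.86, 10.21 and 9.03 at P1d and 7.56, 8.23 and 8.07 at P7d. The lower P7d level against E18.5d (log2 -0.32, SE 0.11, adjusted p = 0.03) was lost after median-of-ratios scaling (log2 -0.13, adjusted p = 0.33) and without either of E18.5d replicates 1 and 2 or any P7d heart (adjusted p from 0.0567 to 0.105). The other 3 effectors passed in no comparison as deposited. *Ifit2*, which binds viral RNA, was at 5.44 ± 0.504, 4.08 ± 1.08 and 5.12 ± 0.393 FPKM, and its relative *Ifit3* at 1.35 ± 0.698, 2.09 ± 0.196 and 1.16 ± 0.582 (SD, n = 3). After median-of-ratios scaling *Ifit2* was higher at P7d than at P1d (log2 0.40, adjusted p = 0.0413, against 0.29 and 0.125 as deposited). *Ifit3* shares 31.7% of its 100-base stretches with *Ifit3b*, so its level is uncertain. *Parp14*, an ADP-ribosyltransferase, was at 3.63 ± 0.322, 3.13 ± 0.201 and 3.51 ± 0.603 FPKM.

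**Figure D3:**
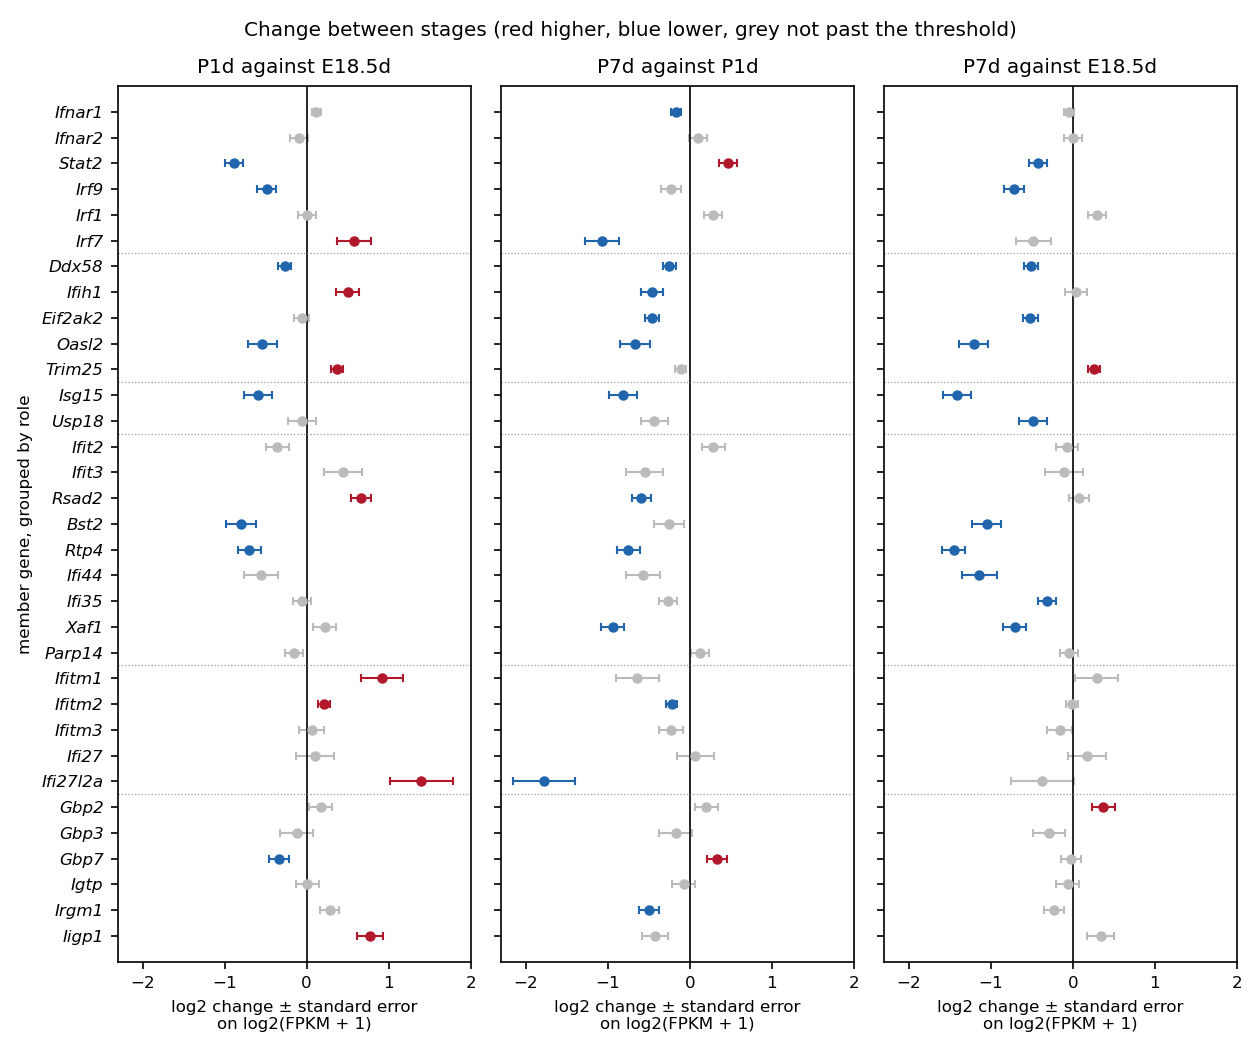
Log2 change with its standard error for the 33 members in the 3 comparisons, on log2(FPKM + 1) (limma). Red and blue points passed an adjusted p of 0.05 upwards and downwards and grey points did not. The middle panel, P7d against P1d, holds 13 blue and 2 red points, and the left panel 8 of each.

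The IFITM and IFI27 membrane proteins held the most abundant members. IFITM proteins sit in the plasma and endosomal membranes and hinder the fusion of enveloped viruses. *Ifitm2* had a mean of 216 FPKM over the hearts, above 97.1% of the genes tested, and *Ifitm3* a mean of 92.4, above 94.0% of them. *Ifitm2* was at 208.90, 205.35 and 201.17 FPKM, then 220.66, 268.41 and 225.77, then 199.63, 210.05 and 200.52. The P1d hearts were above all others, but the differences were small (log2 0.21 and -0.22, SE 0.07, adjusted p = 0.0439 and 0.0365), were 0.04 and -0.09 with columns rescaled to an equal sum (adjusted p = 0.701 and 0.353), were 0.29 and -0.09 after median-of-ratios scaling (adjusted p = 0.0153 and 0.397), and were lost on leaving out any of 7 and 6 hearts, including P1d replicate 2, all 3 P7d hearts and E18.5d replicates 1 and 2 for both and E18.5d replicate 3 for the first (adjusted p from 0.0576 to 0.11 and from 0.052 to 0.0973). It also shares 34.9% of its 100-base stretches with other genes. *Ifitm3* was at 95.2 ± 19.6, 98.4 ± 12.6 and 83.7 ± 5.32 FPKM (SD, n = 3) and passed in no comparison.

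*Ifitm1*, a relative found mainly at the cell surface, had 4.62, 3.89 and 2.09 FPKM at E18.5d, 10.52, 7.44 and 4.96 at P1d and 3.8, 4.81 and 4.52 at P7d. The P1d hearts lay above both other stages, with log2 0.92 against E18.5d (SE 0.26, adjusted p = 0.0164). That call was lost without E18.5d replicate 3 or P1d replicate 1 (adjusted p = 0.0553 and 0.0564) and with the *Xist* covariate (adjusted p = 0.0639).

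*Ifi27l2a* (chr12:103442167-103443680), a small hydrophobic membrane protein, had the largest rise and the largest fall among the called members on the log2 scale. It was at 26.47, 17.93 and 7.56 FPKM at E18.5d, 35.67, 62.78 and 34.06 at P1d and 12.35, 12.16 and 10.63 at P7d. Every P1d heart exceeded every other heart. The P1d mean was 2.55 times that at E18.5d (log2 1.40, SE 0.38, adjusted p = 0.0131) and the P7d mean 0.265 times that at P1d (log2 -1.78, SE 0.38, adjusted p = 0.00448). The fall held in all 20 alternatives and the rise in all but the *Xist* covariate (adjusted p = 0.0727). Its 463 exonic bases make the estimate per heart 40 to 247 fragments. Its neighbour *Ifi27* was at 15.9 ± 2.06, 18 ± 7.98 and 17.9 ± 1.70 FPKM (SD, n = 3) and passed in no comparison.

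The guanylate binding proteins (GBPs) and immunity-related GTPases take part in the defence against intracellular pathogens and respond chiefly to interferon gamma. Of 6 members, 1 was higher and 1 lower at P1d than at E18.5d, beside 18.4% and 27.6% of all genes tested. From P1d to P7d 1 rose and 1 fell, beside 15.5% and 28.6%. From E18.5d to P7d 1 rose and none fell, beside 12.5% and 36.9%. *Iigp1* was at 0.92, 1.11 and 0.83 FPKM, 1.71, 2.32 and 3.06 at P1d and 1.76, 1.41 and 1.27 at P7d. P1d lay above E18.5d without overlap, at 2.48 times its mean (log2 0.77, SE 0.16, adjusted p = 0.00332) in all 19 alternatives, and P1d and P7d overlapped (log2 -0.42, adjusted p = 0.0509). From E18.5d to P7d the log2 difference of *Iigp1* was 0.34 (adjusted p = 0.0953) and 0.46 after median-of-ratios scaling (adjusted p = 0.0403). *Irgm1* had 10.29, 10.07 and 8.13 FPKM, then 10.80, 13.22 and 11.09, then 9.29, 7.20 and 7.47. P7d was below P1d (log2 -0.50, SE 0.12, adjusted p = 0.00827), lost with the *Xist* covariate (adjusted p = 0.0711). *Irgm1* at P1d against E18.5d was at log2 0.28 (adjusted p = 0.0863) and at 0.35 after median-of-ratios scaling (adjusted p = 0.0324).

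Of the 3 GBPs, *Gbp7* was at 4.36, 3.78 and 3.35 FPKM, 3.01, 3.02 and 2.38 at P1d and 4.25, 3.38 and 3.67 at P7d, so that P1d was the lowest stage without overlap. Its calls (log2 -0.34 and 0.33, SE 0.12, adjusted p = 0.0352 and 0.0449) were each lost on leaving out single hearts, the first for E18.5d replicates 1 and 2, P1d replicate 3 and P7d replicate 3 (adjusted p from 0.0514 to 0.119), the second for E18.5d replicate 2, all P1d hearts and P7d replicates 1 and 3 (adjusted p from 0.0504 to 0.149). The first was also lost after median-of-ratios scaling (log2 -0.28, adjusted p = 0.0626). *Gbp2* had 2.56, 2.97 and 1.75 FPKM, then 2.75, 3.08 and 2.63, then 3.75, 3.28 and 3.15. Its P7d hearts lay above both earlier stages, and the difference from E18.5d (log2 0.37, SE 0.14, adjusted p = 0.0447) was lost without any of 7 hearts, all but E18.5d replicate 2 and P1d replicate 2 (adjusted p from 0.0512 to 0.135). *Gbp7* shares 10% of its 100-base stretches with *Gbp3* and *Gm43802*. *Gbp3* (3.16 ± 0.734, 2.80 ± 0.435 and 2.43 ± 0.901 FPKM) and *Igtp* (3.28 ± 0.488, 3.33 ± 0.536 and 3.13 ± 0.61 FPKM, SD, n = 3) passed in no comparison.

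Of the 6 members under the filter, *Oas1a* was at 0.44 to 1.66 FPKM, *Mx2* at 0.27 to 1.51, *Ifit1* at 0.50 to 1.3, *Oas3* at 0.06 to 0.62, *Mx1* at 0.01 to 0.49 and *Oas2* at 0.03 to 0.34. When tested without the filter, *Oas3*, one of the synthetases that switch on RNase L, was lower at P7d than at P1d (log2 -0.43, adjusted p = 0.00357, limma) and than at E18.5d (log2 -0.25, adjusted p = 0.0331). *Mx2* and *Oas1a* fell from E18.5d to P7d (log2 -0.65 and -0.58, adjusted p = 0.0174 and 0.0113). *Oas1a* shares 40.9% of its 100-base stretches with *Oas1g*.

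Of the 45 called changes, 23 were lost in none of the alternatives counted as for *Stat2*, and these can be set beside their values without the 3 secretoglobin hearts. From E18.5d to P1d, *Stat2* (-0.69, adjusted p = 0.0329, limma) and *Iigp1* (1.00, adjusted p = 0.0247) stayed past the threshold on the log2 scale, whereas *Irf9* (-0.18, adjusted p = 0.431), *Bst2* (-0.30, adjusted p = 0.191), *Rtp4* (-0.47, adjusted p = 0.19) and *Rsad2* (0.68, adjusted p = 0.0652) did not. From P1d to P7d all 8 stayed past it, namely *Stat2* upwards and *Irf7*, *Eif2ak2*, *Isg15*, *Rsad2*, *Rtp4*, *Xaf1* and *Ifi27l2a* downwards. From E18.5d to P7d, *Oasl2* (-0.80, adjusted p = 0.0478), *Isg15* (-0.96, adjusted p = 0.0115), *Bst2*, *Rtp4* (-1.26, adjusted p = 0.0133) and *Ifi44* (-0.85, adjusted p = 0.0169) stayed, and *Irf9* (-0.46, adjusted p = 0.0619), *Ddx58* (-0.39, adjusted p = 0.071), *Eif2ak2* (-0.36, adjusted p = 0.0684) and *Xaf1* (-0.43, adjusted p = 0.132) did not. The E18.5d stage is then replicate 3 alone, the heart in which the members were lowest.

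The members also varied together between hearts of 1 stage. E18.5d replicate 3 was the lowest of its stage in 30 of the 33 members (90.9%), whereas it was lowest in 44.3% of all genes tested. Its median member stood 0.20 log2 units under the stage mean (-0.20, against -0.02 for all genes). P1d replicate 2 was the highest of its stage in 22 members (66.7%, against 40.5% of all genes) and P7d replicate 1 in 21 (63.6%, against 37.0%). Without E18.5d replicate 3, the median member change from E18.5d to P1d was -0.12 in place of 0.01, and 5 members in place of 8 were called higher at P1d.

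**Figure D4:**
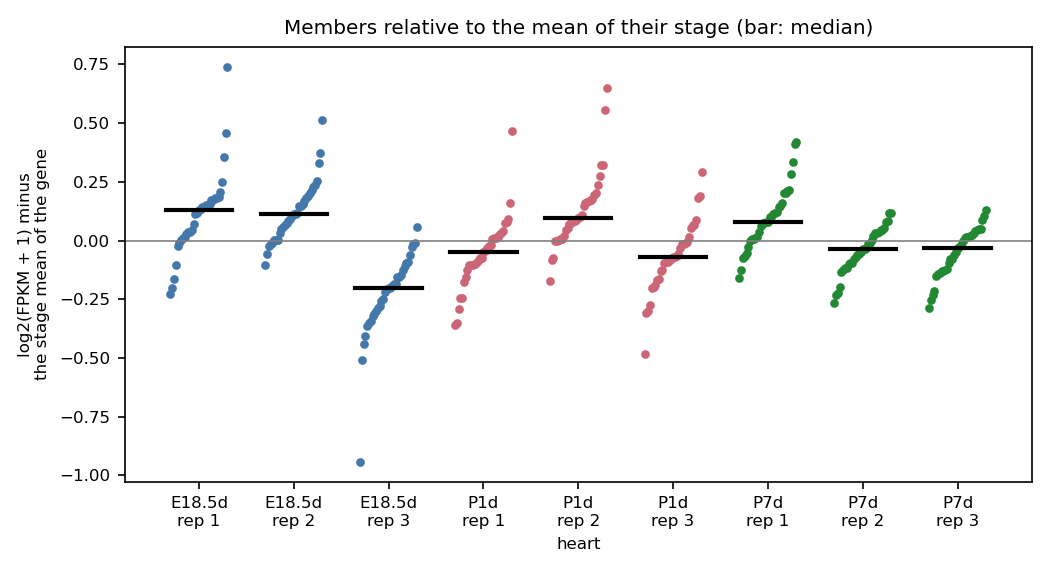
Each of the 33 members in each heart, as log2(FPKM + 1) minus the mean of its stage, with points sorted by value and a bar at the median. The median of E18.5d replicate 3 lies at -0.20, and those of E18.5d replicates 1 and 2 at 0.13 and 0.11.

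Markers of blood and immune cells moved with some of these values. The summed FPKM of 7 neutrophil markers was 9.79, 12.3 and 5.95 at E18.5d, 48.4, 73.9 and 55.6 at P1d and 15.9, 17.8 and 19.9 at P7d, and all 5 markers tested were higher at P1d than at E18.5d. Of these, *Retnlg* passed the filter through its P1d hearts (1.48, 4.19 and 3.24 FPKM), against at most 1.16 at E18.5d and 0.57 at P7d. *Ngp* and *Ltf* were at most 0.89 and 0.62 FPKM at E18.5d, so the filter favoured this count of markers higher at P1d. *Ly6g* was at 0 in 8 of the 9 hearts. Macrophage markers (8 genes) summed to 94.8, 91.8 and 75.0, then 129, 157 and 113, then 105, 111 and 104 FPKM, with 6 higher at P1d. These sums were highest at P1d, as were *Irf7*, *Ifih1*, *Rsad2*, *Ifitm1* and *Ifi27l2a*, and both sums were lowest of their stage in E18.5d replicate 3 and highest in P1d replicate 2, as were 30 and 22 of the members. At P7d this did not hold for these sums, although replicate 1 was highest in 21 members. Its neutrophil sum was the lowest of its stage and its macrophage sum lay below that of replicate 2. The part of these markers in the member values was not tested. Within the macrophage list, *Adgre1* (3.58, 3.06 and 2.90, then 2.07, 3.06 and 2.44, then 3.83, 4.27 and 4.10 FPKM) and *Mrc1* (9.10, 9.46 and 8.18, then 7.98, 9.40 and 6.85, then 8.95, 8.08 and 8.35) were not higher at P1d. Leukocyte markers (6 genes) ranged from 25.1 FPKM in E18.5d replicate 3 to 38.0 in P1d replicate 2, and at P7d were highest in replicate 3 (37.2). The 4 B cell markers ranged from 0.37 to 2.05 FPKM. Both sums had their highest stage median at P7d (29.1, 31.9 and 36.1 for leukocytes, 0.41, 1.12 and 1.74 for B cells, in order of stage). The 9 T cell markers ranged from 0.67 to 1.62 and 4 markers of plasmacytoid dendritic and NK cells from 0 to 0.56, with *Ptcra* at 0 in every heart. Endothelial markers (6 genes) summed to 406, 396 and 376 FPKM at E18.5d, 458, 489 and 444 at P1d and 523, 505 and 517 at P7d. Of these genes, 5 rose and 1 fell from E18.5d to P7d. The endothelial sum was lowest of its stage in E18.5d replicate 3 and highest in P1d replicate 2 and P7d replicate 1. Most members had the same order, and the part of this sum in their values was not tested. Erythroid markers (5 genes) were at 15463 FPKM in E18.5d replicate 3 and 5806 and 7556 in its stage mates. Their sum was also highest of its stage in P1d replicate 2 (17113, against 10933 and 8916) and P7d replicate 1 (7403, against 5716 and 6637). In those hearts most members were highest, whereas in E18.5d replicate 3 most were lowest.

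**Figure D5:**
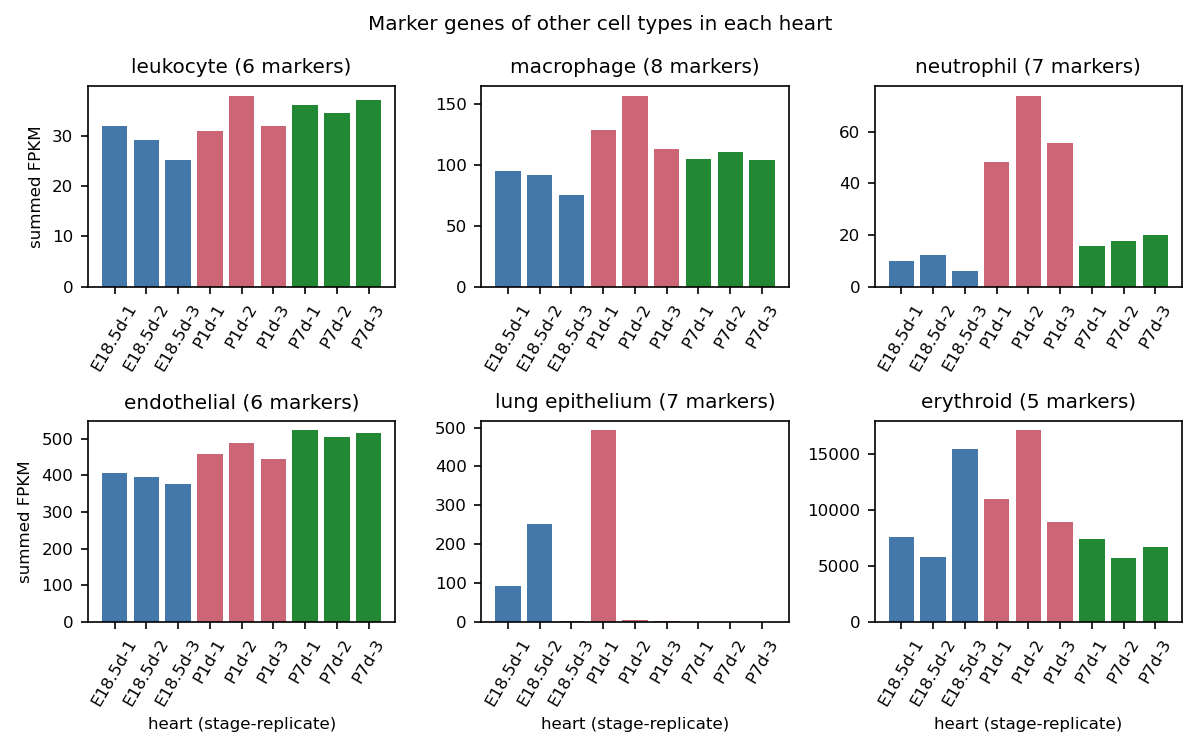
Summed FPKM of marker genes of 6 other cell types in each of the 9 hearts (bars, coloured by stage). Neutrophil and macrophage markers are highest in the P1d hearts, and the lung epithelium list, through its secretoglobins, stands out in E18.5d replicates 1 and 2 and in P1d replicate 1.

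The interferons themselves were at or near 0. Of 20 interferon genes of types I, II and III, 17 were listed at 0 in every heart, and the highest value was 0.14 FPKM for *Ifnk* in P1d replicate 3. *Ifnb1* was at 0.12 in E18.5d replicate 2 and at 0 elsewhere. The other receptors and JAK-STAT genes were expressed, 15 of 16 passing the filter. At P1d against E18.5d 6 were higher and 2 lower, at P7d against P1d 4 and 5, and at P7d against E18.5d 6 and 4. The shares of all genes called are those given for the members above, and the balance moved with the scaling. With equal column sums the counts were 0 and 3, 3 and 2, and 4 and 4. All 13618 genes had 1175 and 4694, 2200 and 1729, and 1267 and 4443 on that scale. With median-of-ratios scaling the counts of the list were 8 and 2, 4 and 3, and 7 and 0. *Stat3* rose from 42.3 FPKM at E18.5d to 57.9 and 71.8 (log2 0.75 at P7d, adjusted p = 0.000284), and *Ifngr2*, a chain of the interferon gamma receptor, dipped from 45.8 to 37.6 at P1d and reached 55.7 at P7d (log2 -0.28 and 0.55, adjusted p = 0.0023 and 6.81e-05). *Ptpn6*, the phosphatase SHP-1, rose from 1.82 at E18.5d to 3.91 at P7d (log2 0.80, adjusted p = 0.000305). *Socs3*, a feedback inhibitor of JAK kinases, fell from 3.89 FPKM at P1d to 2.26 at P7d (log2 -0.58, adjusted p = 0.00191).

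Among 8 other interferon regulatory factors and their binding proteins tested, 3 were higher and 2 lower at P1d against E18.5d, beside 18.4% and 27.6% of all genes. At P7d against P1d they were 1 and 2, beside 15.5% and 28.6%, and at P7d against E18.5d 1 and 1, beside 12.5% and 36.9%. The last became 3 and 0 after median-of-ratios scaling (23.2% and 18.7% of all genes) and 0 and 2 with equal column sums (1267 and 4443 of 13618 genes). *Irf2bp2*, a corepressor that binds IRF2, was at 23, 45.4 and 25.3 FPKM in order of stage (log2 0.95 at P1d, adjusted p = 3.03e-06). *Irf3*, the factor that the RNA sensors activate, fell from 25.8 to 20.3 and 20.8 (log2 -0.33 and -0.30 against E18.5d, adjusted p = 0.00339 and 0.0055), of which the second was -0.09 after median-of-ratios scaling (adjusted p = 0.255). *Irf8* dipped from 5.09 to 3.87 at P1d and was at 5.39 at P7d (log2 -0.32 and 0.39, adjusted p = 0.0159 and 0.00651). Its P7d level did not differ from E18.5d (log2 0.07, adjusted p = 0.53). *Irf2bpl* was at 14.7 at P7d against 12.6 at E18.5d (log2 0.21, adjusted p = 0.0354).

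Other ISGs, 52 genes outside the set, moved in both directions. Of 30 tested, 3 were higher and 5 lower at P1d against E18.5d, beside 18.4% and 27.6% of all genes. At P7d against P1d they were 6 and 8, beside 15.5% and 28.6%, and at P7d against E18.5d 4 and 7, beside 12.5% and 36.9%. The last turned to 8 and 1 after median-of-ratios scaling, beside 23.2% and 18.7% of all genes. It was 8 and 0 after quantile normalization, beside 2889 and 2937 of 13618 genes. The list thus has no direction that holds across scalings, and the calls over all genes shifted with the scaling as well. *Slfn5*, a schlafen protein, rose from 17.4 to 27.9 and 32.3 FPKM (log2 0.66 at P1d and 0.86 at P7d against E18.5d, adjusted p = 0.000224 and 4.29e-05). *Samd9l* fell from 2.56 to 0.973 FPKM at P1d (log2 -0.84, adjusted p = 0.000646) and rose to 1.68 at P7d (log2 0.44, adjusted p = 0.0195). Its P7d level was below E18.5d as deposited (log2 -0.40, adjusted p = 0.0265), a call lost after median-of-ratios scaling (log2 -0.26, adjusted p = 0.132). *Herc6*, which joins ISG15 to proteins in mice, fell from 2.07 to 1.13 at P7d (log2 -0.52, adjusted p = 0.0124). *Sp100*, a nuclear body protein, was at 7.16 FPKM at P7d against 3.46 at P1d (log2 0.86, adjusted p = 0.0016), and *Lgals3bp* at 12.0 against 22.9 (log2 -0.87, adjusted p = 0.00316). The adaptors and nucleases of nucleic acid sensing (15 tested) had 2 higher and 6 lower at P1d against E18.5d, beside 18.4% and 27.6% of all genes. They had 3 and 2 at P7d against P1d, beside 15.5% and 28.6%, and 1 and 6 at P7d against E18.5d, beside 12.5% and 36.9%. The last became 4 and 4 after median-of-ratios scaling, beside 23.2% and 18.7%. *Rnaseh2b*, a subunit of the enzyme that removes RNA from DNA, fell from 18.4 to 9.07 FPKM at P1d (log2 -0.97, adjusted p = 0.000572) and was at 10.1 at P7d (log2 -0.81, adjusted p = 0.00147). *Trex1*, a DNA exonuclease, rose from 7.24 to 11.2 at P1d and fell to 7.95 at P7d (log2 0.56 and -0.44, adjusted p = 0.00171 and 0.00648). *Myd88*, an adaptor of toll-like receptors, was at 7.50 at P7d against 5.82 at E18.5d (log2 0.32, adjusted p = 0.0168). *Tmem173*, which encodes STING, dipped from 3.93 to 2.45 at P1d and was at 4.23 at P7d (log2 -0.52 and 0.60, adjusted p = 0.00452 and 0.00225). Its P7d level did not differ from E18.5d (log2 0.09, adjusted p = 0.552).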

How the data were processed

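RNA was extracted with Trizol from 9 hearts and sequenced after library preparation with a NEBNext Ultra kit, per the labels. The authors deposited 1 table of FPKM values with 2 decimals for 48820 gene IDs. The submitters' processing notes name STAR, GRCm38 and mm10, and the counting tool and annotation are not given in the sources used here. Of the IDs, 48144 matched GENCODE M21, which gave positions and lengths. FPKM are no counts, so log2(FPKM + 1) was fitted with limma 3.58.1 (R 4.3.3, eBayes with trend) over the 3 stages without covariates, for genes whose mean reached 1 FPKM, with p-values adjusted by the Benjamini-Hochberg method at 0.05. Whole fragments (within 0.1) explained 86.3% to 90.2% of the low values and gave the depths, and floors cover counting error only. Scripts used Python 3.11.15, numpy 2.4.6, pandas 2.3.3 and matplotlib 3.10.9 and were tested on simulated data.

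The members and lists were chosen with earlier results of these data known. All 39 members are named, those past the threshold with every heart. From each list of other pathway genes the text names the largest called rise and fall without overlap between hearts, except genes that are not reported here. Alternatives were another pseudocount, filters, scalings, the fit, a replicate block, *Xist* as covariate and leaving out hearts. That without the secretoglobin hearts was chosen after seeing the data.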

Additional observations from a re-analysis of the deposited data

How the results depend on the processing

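Counts of members called are given as higher and lower for P1d against E18.5d, P7d against P1d and P7d against E18.5d in turn, and were 8 and 8, 2 and 13, and 2 and 12 in the reported analysis (limma). They were 6 and 5, 1 and 12, and 1 and 13 with no filter on low values, with 39 members among 27255 genes. All these genes had 2510 and 3960, 2042 and 3893, and 1772 and 5303. With a mean of at least 5 FPKM, which leaves 16 members and 9130 genes, they were 4 and 3, 0 and 7, and 1 and 6. Those 9130 genes had 1933 and 2689, 1482 and 3081, and 1264 and 3786. Columns rescaled to an equal sum gave 5 and 10, 4 and 9, and 0 and 13, beside 1175 and 4694, 2200 and 1729, and 1267 and 4443 of 13618 genes. An equal sum over protein-coding nuclear genes gave 8 and 8, 4 and 10, and 4 and 9, beside 2628 and 3500, 3293 and 2234, and 2752 and 2872. Median-of-ratios scaling gave 10 and 5, 4 and 10, and 5 and 9, beside 3215 and 3031, 3194 and 2473, and 3159 and 2545 of all genes. Quantile normalization gave 10 and 5, 3 and 10, and 5 and 9, beside 3206 and 3066, 2879 and 2787, and 2889 and 2937. With only the compared stages in the fit they were 6 and 6, 1 and 14, and 3 and 11, beside 2203 and 3357, 1843 and 3493, and 1906 and 5459. The *Xist* covariate gave 3 and 8, 1 and 7, and 2 and 13, beside 1607 and 2893, 1467 and 2438, and 1631 and 4820 of all genes. Without the hearts with *Xist* they were 0 and 1, 0 and 0, and 0 and 1, with 5 hearts left, and without the secretoglobin hearts 5 and 1, 1 and 13, and 3 and 5. Requiring a log2 change of at least 1 left 1 and 0, 0 and 2, and 0 and 5, and hearts that did not overlap numbered 10 and 8, 4 and 21, and 4 and 11. Leaving out 1 heart at a time gave 5 to 8 and 4 to 9, 1 to 4 and 8 to 17, and 1 to 3 and 10 to 14. The cause of these differences was not tested beyond the fewer genes or hearts named.

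With the replicate number as a block the counts were 8 and 8, 2 and 13, and 2 and 12, and the calls of *Ifnar1* and of *Ddx58* from P1d to P7d were lost. Deviations of same-numbered hearts correlated between -0.05 and 0.11 over 9 pairs (-0.18 to 0.13 over 18 others), so the numbers were not taken as pairs. Of 540 values of called members under alternatives, 434 stayed past the threshold, 106 did not and 0 changed sign. Depth limited *Isg15* to an estimated 27 to 126 fragments per heart.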

Other observations

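Genes of MHC class I antigen presentation and the immunoproteasome, many of which interferons also induce, were called higher in most members tested when either postnatal stage was set against E18.5d. Of 9 tested out of 11, 6 were higher and 0 lower at P1d than at E18.5d, 1 higher and 1 lower at P7d than at P1d, and 7 rose and 1 fell from E18.5d to P7d (limma, adjusted p of 0.05). Of all genes, 18.4% were higher in the first and 12.5% in the last of these comparisons. The list had medians of 0.56, -0.14 and 0.54 on the log2 scale beside -0.06, -0.09 and -0.17 for all genes. *Psmb10* passed in no comparison as deposited. *H2-T23*, a non-classical class I chain, was at 3.65, 3.38 and 3.40 FPKM at E18.5d, 10.58, 14.11 and 9.05 at P1d and 6.81, 6.34 and 4.82 at P7d (log2 1.43 at P1d against E18.5d, adjusted p = 9.14e-05). *Psmb8*, an immunoproteasome subunit, rose from a mean of 2.36 at E18.5d to 5.32 at P7d (log2 0.92, adjusted p = 0.00228). *B2m*, the light chain of class I molecules, fell from 96.5 to 72.7 (log2 -0.40, adjusted p = 0.0164), a call lost after median-of-ratios scaling (log2 -0.19, adjusted p = 0.231). On that scale the last comparison had 8 higher and 0 lower, beside 23.2% and 18.7% of all genes. The list was chosen with earlier results of these data known.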
